A study of Mus musculus with 4 samples.

Results

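The E2F and DP transcription factors were followed across 4 bead arrays of a mouse lymphoma line in which MYC can be switched off. The group was defined by symbol in the array annotation and holds 10 genes, E2f1 to E2f8, Tfdp1 and Tfdp2, which 27 of the 45281 probes on the array read. A probe counted as detected when its detection p-value, the rank of its signal among negative control beads, was at most 0.01 on 1 or more arrays. By that rule 20 of the 27 probes and 9 of the 10 genes were detected, among 8674 detected genes in all. E2f7 was undetected with each of its 4 probes. The probe of E2f7 nearest to the limit reached a lowest p of 0.0107, and the other 3 had lowest values of 0.0374, 0.0470 and 0.110. E2f8 passed through the arrays with doxycycline alone, where its p was 0.00641 in the control cells and 0 in the miR-17-92 cells, against 0.0182 and 0.122 without the drug. The remaining 8 genes were detected on all 4 arrays.

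The cells were CL4188, a conditional MYC lymphoma line of FVB/N background, so every group comes from a single line. In all 4 groups MYC is under a switch that doxycycline (DOX) turns off. One derivative carried the MSCV retroviral vector with no insert (control cells), the other the same vector encoding the miR-17-92 microRNA cluster (miR-17-92 cells). Each was profiled without DOX (MYC on) and after 48 hours of DOX at 20 ng/ml (MYC off), with 1 array per group. Neither an effect within a line nor the difference between lines therefore has a replicate check or a test. An effect of DOX shared by both lines, with the lines as pairs, could be fitted but was not tested here. The labels do not give the promoter that drives MYC or the species of the transgene.

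E2F proteins bind DNA mostly as dimers with a DP partner and control genes needed to enter and pass through S phase. E2f1, E2f2 and E2f3 are described as activators, E2f4 and E2f5 as repressors that act with the pocket proteins of the RB family. E2f6 represses without pocket proteins, as part of a Polycomb complex, and E2f7 and E2f8 are atypical repressors that bind without a DP partner. MYC and the activating E2Fs are known to induce each other, and E2F1, E2F2 and E2F3 are reported, in human cells, as targets of miR-17-5p and miR-20a.

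The mature microRNAs of the cluster are printed because the vector that separates both lines encodes them. They are RefSeq entries on the plus strand of mouse chromosome 14 (GRCm38.p6), between chr14:115043684-115043706 for miR-17-5p and chr14:115044476-115044496 for miR-92a-3p. Capitals mark the seed, bases 2 to 8.
mmu-miR-17-5p: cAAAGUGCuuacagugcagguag
mmu-miR-20a-5p: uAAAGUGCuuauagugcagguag
mmu-miR-18a-5p: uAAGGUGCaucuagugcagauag
mmu-miR-19a-3p: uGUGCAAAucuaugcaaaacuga
mmu-miR-19b-3p: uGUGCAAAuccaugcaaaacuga
mmu-miR-92a-3p: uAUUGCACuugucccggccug
miR-17-5p and miR-20a-5p share the seed AAAGUGC, the one for which E2F targets are reported, and miR-19a-3p and miR-19b-3p share GUGCAAA. The arrays do not read mature microRNAs, so the amounts delivered by the vector were not measured.

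The arrays were checked against their labels first. With DOX the mouse Myc probe was lower by at least 6.28-fold in control and by at least 5.80-fold in miR-17-92 cells. Mir17hg, the host transcript of the endogenous cluster, was lower by 12.4-fold and 7.71-fold. As the species of the transgene is not given, the Myc probe may not read it. With MYC on, both genes were nearly level between the lines, at log2 -0.13 to -0.07. They therefore do not check which line carried the cluster. Of 7 T-cell markers with a named probe, the MYC-on arrays each detected 5 and the MYC-off arrays 6, Cd5 being the one at background throughout, and every array detected Ptprc, the pan-leukocyte marker. The summed normalised signal of the T-cell markers was 57117 and 52759 without DOX and 157488 and 110490 with DOX, control cells first. Of 16 markers of other types (B, NK, myeloid, red and stromal cells), the MYC-on arrays detected 0 and the MYC-off arrays 1, Itgam. Their summed signal lay between 590 and 698 on the 4 arrays. The part of these shifts in the results below was not tested, and in bulk RNA fewer cells of a type and less RNA per cell cannot be told apart. Slide positions in the headers put the MYC-on arrays on 1 slide and the MYC-off arrays on another, so within a line an effect of slide and an effect of DOX cannot be told apart. The miR-17-92 and control arrays of each condition share a slide.

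With MYC off in the control cells, 5 of the 9 detected genes were at least 2-fold lower, 1 was at least 2-fold higher and 3 lay within 2-fold. The lower genes were E2f1, E2f3, E2f5, E2f6 and Tfdp1, and the higher one was E2f2. Across all detected genes 18% were 2-fold lower and 19.9% 2-fold higher in this comparison, 37.9% in either direction. The median log2 ratio of the 9 genes was -1.47, beside 0.06 for all genes. In the miR-17-92 cells 0 of the 9 were 2-fold lower, against 12.8% of all genes, although E2f6 and Tfdp1 passed 2-fold under other scalings. E2f2 was 2-fold higher there, against 14.8% of all genes (27.5% in either direction). E2f8 passed 2-fold by its normalised values, but it was undetected without DOX and its bound of 1.97-fold does not reach that line. The median there was -0.58, beside 0.09 for all genes. Ratios are on the log2 scale of normalised signal with an offset of 16, and a gene is represented by its brightest detected probe. The offset narrows differences of dim probes, while subtracting background can widen them. For E2f8 the log2 ratio in the miR-17-92 cells was 1.87 here and 0.92 without background correction.

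**Figure D1:**
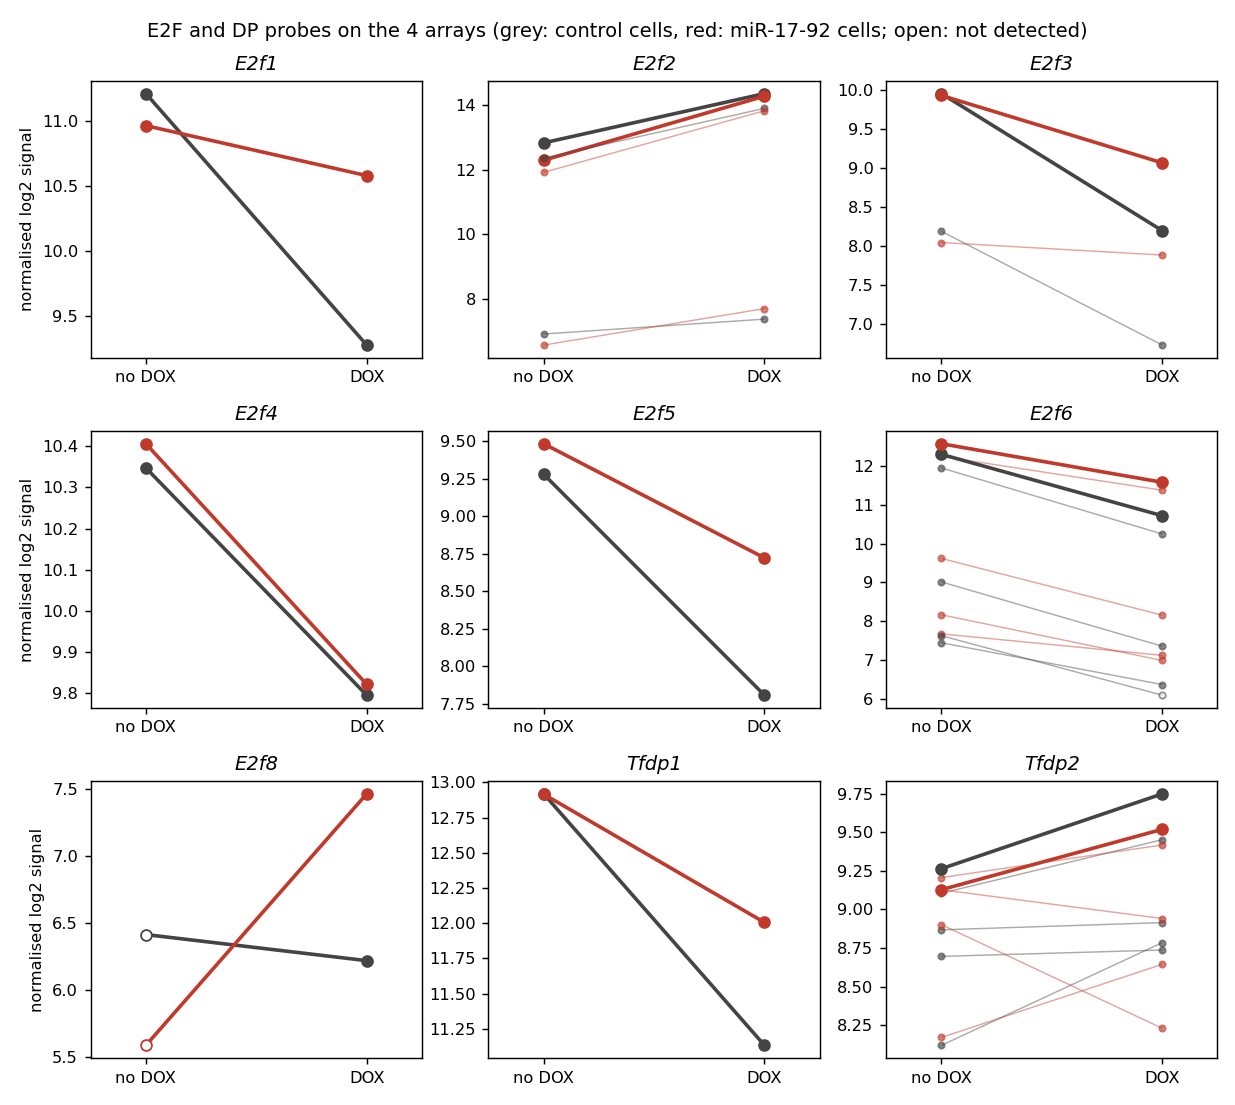
Normalised log2 signal (vertical axis, scaled separately per gene) of every detected E2F and DP probe without and with DOX in control cells (grey) and miR-17-92 cells (red). Thick lines join the brightest probe of a gene, thin lines other probes, and open points were not detected. The grey line slopes down more steeply than the red one for E2f1, E2f3, E2f5, E2f6 and Tfdp1, both slope up for E2f2, and both nearly coincide for E2f4.

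E2f1, the activator best known for driving the S-phase programme, was read by the single probe ILMN_1231138. Its normalised log2 signal was 11.21 in the control cells and 10.96 in the miR-17-92 cells with MYC on, and 9.28 and 10.58 with MYC off. The raw bead intensities were 2428, 2142, 777 and 1652 in the same order. The control array with DOX stood apart as the lowest of the 4. The miR-17-92 array with DOX lay below both arrays without the drug, but nearer to them than to the control array with DOX. The E2f1 signal with DOX was 26.2% of that without it in the control cells, a 3.82-fold lower level, and 76.6% in the miR-17-92 cells, a 1.30-fold lower level. The difference of both log2 ratios was 1.55. Between the lines E2f1 was 1.19-fold lower in the miR-17-92 cells with MYC on and 2.47-fold higher with MYC off. Both of these ratios compare arrays of the same slide. Of the 8 genes of the group detected on all arrays, E2f1 alone had a difference of the DOX effects past 2-fold. Among all genes with a probe detected on all 4 arrays, 6.27% were 2-fold above 0 and 2.75% 2-fold below it, 9.02% together. A count of 1 of 8 therefore does not set the group apart. Among all detected genes these shares were 7.1%, 4.82% and 11.9%.

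E2f2, also an activator and known for roles in lymphocyte proliferation, went the other way. The log2 signal of its brightest probe, ILMN_2673776, was 12.83 and 12.29 with MYC on and 14.35 and 14.27 with MYC off, control cells first. The raw intensities were 7735, 5525, 17032 and 18227 on the arrays in that order. Both arrays with DOX were above both without it. With DOX the E2f2 signal was higher by 2.87-fold in control and by 3.95-fold in miR-17-92 cells. The other probes of E2f2 showed the same direction, with log2 ratios of 1.54 and 0.46 in the control cells and 1.90 and 1.13 in the miR-17-92 cells, the smaller value of each pair from a dim probe whose detection p without DOX was 0.00427 and 0.00641. With MYC on, the miR-17-92 cells had 1.45-fold less E2f2 signal, and its 3 probes ranged from log2 -0.54 to -0.34. With MYC off the lines differed by log2 -0.08 at the brightest probe, and the 3 probes straddled 0, from -0.08 to 0.33.

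E2f3, the third activator, followed E2f1 in direction. Its brightest probe, ILMN_2743503, gave log2 signals of 9.95 and 9.93 with MYC on and 8.20 and 9.06 with MYC off. The lines were level with MYC on, at log2 -0.02, and the control array was the lower one with MYC off. With DOX the E2f3 signal was lower by 3.38-fold in control and by 1.82-fold in miR-17-92 cells. The second probe gave log2 ratios of -1.46 and -0.16 for the same comparisons. Its difference of the DOX effects was 1.30, against 0.89 at the brightest probe. For comparison, the typical spread between probes of 1 gene was log2 0.31 in that difference, over 3502 genes with at least 2 detected probes. This spread describes probes, not replicate cultures.

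**Figure D2:**
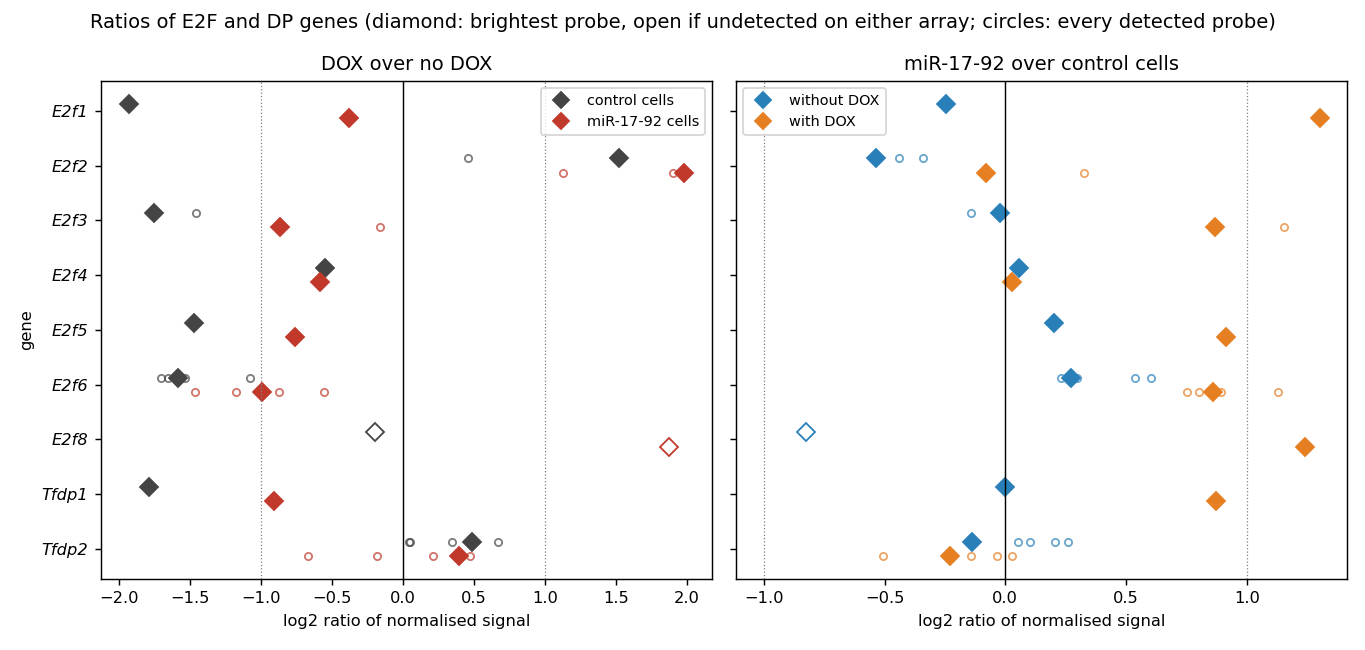
Log2 ratios of normalised signal (horizontal axis) for each E2F and DP gene, with DOX over no DOX on the left and miR-17-92 over control cells on the right. Diamonds are the brightest probe, open where either array did not detect it, circles every detected probe, and dotted lines mark 2-fold. On the left 5 grey diamonds lie beyond -1, and on the right the orange diamonds of E2f3, E2f5, E2f6 and Tfdp1 lie together between 0.86 and 0.92.

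Among the repressors, E2f4 and E2f5 differed. E2f4, a main partner of the pocket protein p130 in resting cells, gave log2 signals of 10.35 and 10.41 with MYC on and 9.80 and 9.82 with MYC off. The 2 lines were nearly level in each condition, and the log2 ratio with DOX was -0.55 in control and -0.58 in miR-17-92 cells. Its difference of the DOX effects was log2 -0.03, the one nearest to 0 among the 8 genes detected on all arrays. E2f5, a close relative of E2f4, gave 9.28 and 9.48 with MYC on and 7.81 and 8.72 with MYC off. With DOX its signal was lower by 2.78-fold in control and by 1.70-fold in miR-17-92 cells. The difference of the DOX effects was log2 0.71 for E2f5, larger than the spread between probes of a gene, although a single probe carried it. The second E2f5 probe was not detected on any of the 4 arrays.

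E2f6, which represses E2F and MYC target genes within the Polycomb complex PRC1.6, was read by 5 detected probes of 6. The brightest, ILMN_2723931, gave log2 signals of 12.30 and 12.58 with MYC on and 10.72 and 11.58 with MYC off. In the control cells the signal was 2.99-fold lower with DOX, and the 5 probes ranged from log2 -1.70 to -1.08. In the miR-17-92 cells it was 1.99-fold lower, just inside the 2-fold line, and the probes ranged from -1.46 to -0.55. The miR-17-92 cells were above the control cells at each of the 5 probes in both conditions, by log2 0.23 to 0.60 with MYC on and by 0.75 to 1.13 with MYC off. One of these probes was not detected on the control array with DOX. The difference of the DOX effects was above 0 at each, from log2 0.20 to 0.83.

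Of the atypical repressors, E2f7 did not pass the detection limit. The normalised log2 signals of its 4 probes lay between 4.99 and 6.13 over the 4 arrays, and no ratio is read from them. E2f8, the other atypical repressor, which is itself known as an E2F target, was dim. Its log2 signals were 6.41 and 5.59 with MYC on, both undetected, and 6.22 and 7.46 with MYC off, both detected. The miR-17-92 array with DOX was the highest of the 4. With MYC off E2f8 was 2.37-fold higher in the miR-17-92 cells than in the control cells, the one ratio for which both arrays detected it. Its level with DOX in the miR-17-92 cells was at least 1.97-fold above that without DOX, taken against the dimmest signal that still counted as detected on the array without DOX. No fold is given for the control cells, where the array without DOX was undetected and yet no dimmer, nor for the lines with MYC on.

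Of the DP partners, Tfdp1, which encodes DP1, the main dimerisation partner, had a profile close to that of E2f3. Its probe, ILMN_2692110, gave log2 signals of 12.92 in both lines with MYC on and 11.13 and 12.01 with MYC off. With DOX the Tfdp1 signal was lower by 3.45-fold in control and by 1.88-fold in miR-17-92 cells. With MYC off the miR-17-92 cells were 1.83-fold above the control cells, while the lines were level with MYC on. The raw intensities were 8203, 8764, 2345 and 4133, with the control array after DOX again the lowest. Tfdp2, which encodes DP2, gave 9.26 and 9.13 with MYC on and 9.75 and 9.52 with MYC off at its brightest probe. It was 1.40-fold and 1.31-fold higher with DOX, control cells first, within 2-fold in both lines. The 5 detected probes of Tfdp2 all lay above 0 in the control cells, from 0.04 to 0.67, but on both sides of 0 in the miR-17-92 cells, from -0.67 to 0.47. The difference of the DOX effects was below 0 at all 5 probes, from -0.71 to -0.09, the opposite side from Tfdp1 at 0.88.

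The annotation had RefSeq promoter windows, 250 bases before to 50 after a start site, for 8 of the 10 genes, with 12 windows in all. E2f4 and E2f5 have no entry there. The windows were searched on both strands for the E2F words TTTCCCGC, TTTCGCGC, TTTGCCGC and TTTGGCGC and for the E-box CACGTG, which MYC and MAX bind. No match of one motif overlapped a match of the other. An E2F word was found in 5 of the 12 windows, of E2f2, E2f3, E2f7 and Tfdp1 (both windows), and in 2.26% of all 32851 windows. The windows of Tfdp1 overlap and hold the same match, so this site is counted in both. By gene, an E2F word was found in 4 of 8. No share over all genes was computed, and a gene with more windows has more chances of a match. This count therefore cannot be set against the share of windows. The E-box was found in 2 of the 12, of E2f3 and Tfdp1, and in 7.15% of all windows. E2f1, E2f6, E2f8 and Tfdp2 had neither in these windows. The E2f2 match starts at position 40 of the transcript. Stretches before the start of E2f3 and Tfdp1 are printed because these genes had the closest profiles of the group, with the matches in capitals and the last base next to the start site. The first is the upstream start of E2f3 (chr13:29986064-29986163, minus strand), the second its downstream start (chr13:29984392-29984451, minus strand) and the third Tfdp1 (chr8:13338501-13338750, plus strand), all GRCm38.p6.
E2f3 upstream start: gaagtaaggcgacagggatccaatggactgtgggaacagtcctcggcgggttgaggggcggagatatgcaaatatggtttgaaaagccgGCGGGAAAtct
E2f3 downstream start: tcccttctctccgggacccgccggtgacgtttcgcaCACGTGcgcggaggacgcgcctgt
Tfdp1: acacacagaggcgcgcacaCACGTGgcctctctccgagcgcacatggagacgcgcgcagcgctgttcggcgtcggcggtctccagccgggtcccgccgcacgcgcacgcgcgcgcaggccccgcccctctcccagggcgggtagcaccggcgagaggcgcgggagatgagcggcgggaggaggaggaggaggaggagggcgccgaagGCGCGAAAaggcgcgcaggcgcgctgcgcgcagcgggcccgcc
Counted from the start site, the E2F word begins at -11 of the upstream start of E2f3 and at -43 of Tfdp1, on the strand opposite to the spelling searched. The E-box begins at -24 of the downstream start of E2f3 and at -231 of Tfdp1. A match describes letters and not occupancy, and binding was not measured here.

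Profiles were compared as log2 values centred over the 4 arrays, with the Euclidean distance as the measure of likeness. Tfdp1 and E2f3 were the closest pair of the group, at a distance of 0.04, and E2f5 and E2f6 the next, at 0.18. Among 6946 genes detected on all arrays, the 3 nearest to E2f1 were BC055324 at 0.07 and the histone genes H3c6 and H2bc9, both at 0.11. The histone genes belong to families of near-identical copies, so their probes may read several of them. E2f2 had the widest range in the group, log2 2.06 over the 4 arrays. Nearest to it were Runx1, a transcription factor of blood cell development, at 0.07, Snai3 at 0.12 and 1810062O18Rik at 0.14. Runx1 had log2 ratios with DOX of 1.54 in the control cells and 1.93 in the miR-17-92 cells. These distances rest on 4 values per gene and describe only these arrays.

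With MYC on, the ratios between the lines lay within 2-fold for each gene of the group detected on all arrays. Of the 9 detected genes 0 were past 2-fold in either direction, and E2f8 was undetected on both of these arrays. Among all genes 2.21% were past 2-fold (1.18% higher, 1.04% lower), so 0 of 9 does not set the group apart. The log2 ratios of the 8 genes detected on all arrays ran from -0.54 for E2f2 to 0.27 for E2f6. The typical spread between probes of 1 gene in this comparison was log2 0.19. E2f1, E2f2 and E2f3, the reported targets of miR-17-5p and miR-20a, stood at -0.25, -0.54 and -0.02. With MYC off, E2f1 and E2f8 were past 2-fold higher in the miR-17-92 cells (E2f8 not under 3 other settings), as were 6.36% of all genes, and 0 of the 9 were 2-fold lower, as were 4.83% of all genes (11.2% in either direction). Of the others, E2f3, E2f5, E2f6 and Tfdp1 stood at 0.87, 0.92, 0.86 and 0.87, and E2f4, E2f2 and Tfdp2 at 0.03, -0.08 and -0.23. The group's median was 0.87, beside 0.00 for all genes.

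**Figure D3:**
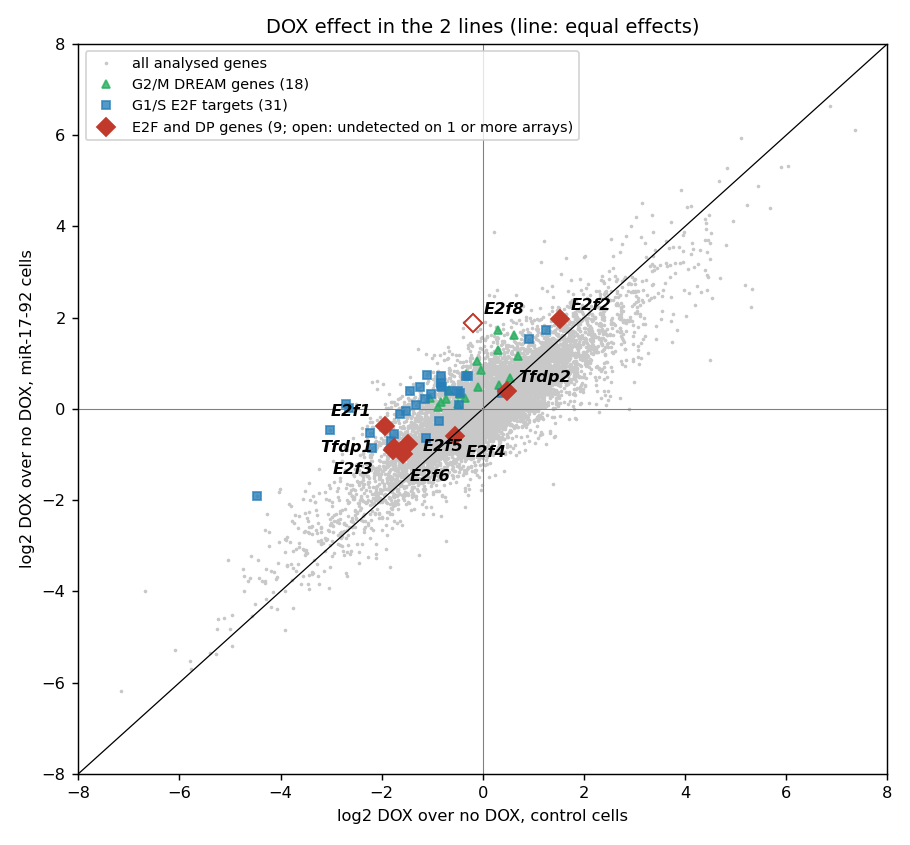
Log2 ratio with DOX over without DOX in control cells (horizontal axis) against miR-17-92 cells (vertical axis) for all 8674 detected genes, with G1/S E2F target genes (squares), G2/M genes (triangles) and E2F and DP genes (diamonds, open for E2f8, which was undetected without DOX). On the line both effects are equal. E2f4 and Tfdp2 lie at the line and E2f1 farthest above it among the filled diamonds, beside many G1/S targets.

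The genes that E2F proteins are known to control were taken from a list. Of 37 genes induced at the G1/S transition 31 were detected, each of them on all 4 arrays. In the control cells 17 of the 31 were 2-fold lower with DOX and 1 was 2-fold higher, beside 18% and 19.9% of all genes, with a median log2 ratio of -1.10. In the miR-17-92 cells 1 was 2-fold lower and 2 were 2-fold higher, beside 12.8% and 14.8% of all genes. The median there was 0.32 with 21 of the 31 above 0, but 0.03 with 16 above 0 in the authors' processed values. The difference of the DOX effects was above 0 for 30 of the 31 and at least 2-fold above it for 23, beside 7.1% of all genes, with a median of 1.34. Ung, a uracil DNA glycosylase, was lower with DOX by 22.2-fold in control and by 3.75-fold in miR-17-92 cells. Mcm6, a subunit of the replicative helicase, was 8.11-fold and 1.37-fold lower. Gins2, of the same helicase, was 6.56-fold lower in the control cells and 1.07-fold higher in the miR-17-92 cells, and Chek1, the S-phase checkpoint kinase, 6.23-fold lower and 1.01-fold higher.

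Of 24 G2/M genes that the DREAM complex of E2F4, DP1, pocket proteins and MuvB represses in resting cells, 18 were detected. Their median log2 ratio with DOX was -0.23 in the control cells, with 1 gene, the mitotic kinase gene Aurkb, 2-fold lower at -1.03, beside 18% of all genes. In these cells 3 were lower with the authors' processed values, at a median of -0.38, and 2 with median scaling, beside 16.3% and 15% of all genes. In the miR-17-92 cells the median was 0.51 and 5 were 2-fold higher, beside 14.8% of all genes. With the authors' processed values the median was 0.23, 13 of the 18 lay above 0 and 2 were 2-fold higher, and with the mean of the detected probes 3 were. Cenpf, a kinetochore gene, stood at 0.31 and 1.73 in the 2 lines, Ube2c, an E2 enzyme of mitotic exit, at -0.12 and 1.04, and Kif11, a spindle motor gene, at -0.34 and 0.77. Of 9 genes reported as apoptotic targets of E2F1, 5 were detected, and 4 of these were 2-fold higher with DOX in the control cells while 0 were in the miR-17-92 cells, beside 19.9% and 14.8% of all genes. With median scaling these counts were 5 and 2, beside 24.7% and 20.3% of all genes. With the mean of the detected probes they were 3 and 0, beside 18.9% and 13.9% of all genes. Bbc3, the gene of PUMA, was 5.08-fold and 1.19-fold higher, Bcl2l11, the gene of BIM, 3.95-fold and 1.30-fold, Casp8, an initiator caspase, 2.97-fold and 1.59-fold, and Apaf1, of the apoptosome, 2.43-fold and 1.91-fold. The E2f1 signal was below its MYC-on level in both lines, and whether E2f1 has a part in the ratios of these genes was not tested.

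**Figure D4:**
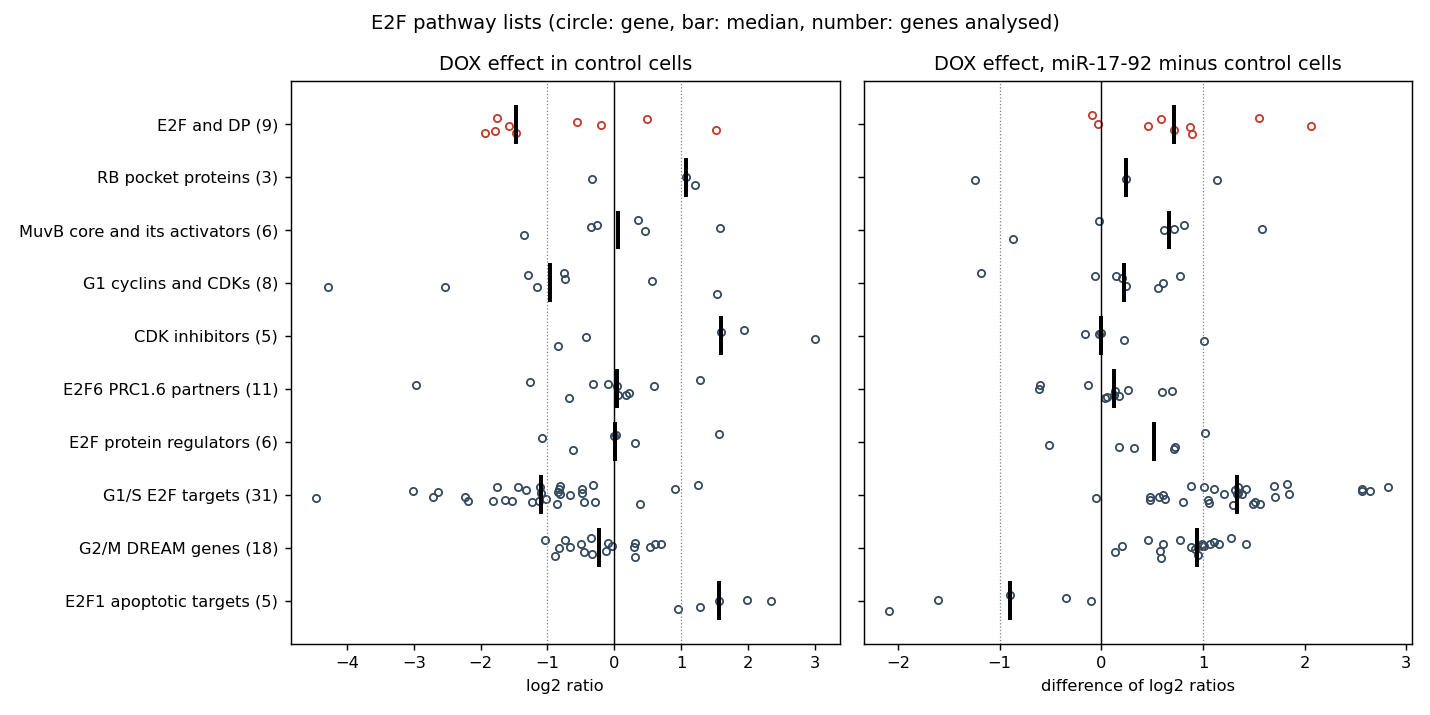
Log2 ratios of single genes (circles) in 10 lists of the E2F pathway, with the median of each list as a bar and the number of detected genes in brackets. The left panel shows the DOX effect in control cells and the right the miR-17-92 effect of DOX minus the control one. G1/S targets have a median of -1.10 on the left and 1.34 on the right, and apoptotic targets 1.57 and -0.90.

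The partners and regulators of E2F proteins were mixed. Of the pocket protein genes, Rb1 was higher with DOX by 2.31-fold in control and by 2.74-fold in miR-17-92 cells. With the authors' processed values 0 of the 3 pocket protein genes were 2-fold higher in control and 1 in miR-17-92 cells, beside 10.9% and 7.62% of all genes. Rbl1, the gene of p107 and a known E2F target, was 1.26-fold lower and 1.75-fold higher at the brightest of its 3 detected probes. Its difference of the DOX effects there was log2 1.14. With the mean of the detected probes, 0 of the 3 pocket protein genes had a difference 2-fold above 0. Rbl2, the gene of p130, was too near the detection limit for a fold. Mybl2, the gene of B-MYB, which binds MuvB in cycling cells, was 2.56-fold lower in the control cells and 1.17-fold higher in the miR-17-92 cells. Foxm1, which joins it at mitotic genes, stood at log2 -0.35 and 0.46, Lin54, the DNA-binding MuvB subunit, at -0.26 and 0.46. Lin37, another MuvB subunit, was at least 1.06-fold and 1.30-fold higher, as bounds.

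Upstream of the pocket proteins, 4 of 8 G1 cyclin and CDK genes were 2-fold lower after DOX in control and 3 in miR-17-92 cells by normalised values, beside 18% and 12.8% of all genes. In each line 1 was 2-fold higher, beside 19.9% and 14.8% of all genes. The control count of lower genes was 2 with median scaling, beside 15% of all genes, and 5 with the authors' processed values, beside 16.3%. With detection on all 4 arrays, 2 of 5 were lower in control and 0 of 5 in miR-17-92 cells, beside 18.3% and 12% of all genes. Ccnd2, the gene of cyclin D2, was lower by at least 12.2-fold in control and by 11.4-fold in miR-17-92 cells, and Cdk6 at least 3.69-fold and 4.16-fold lower. Ccne2, the gene of cyclin E2 and an E2F target, was 2.45-fold and 1.61-fold lower, and Ccnd3, of cyclin D3, 2.89-fold and 3.32-fold higher. Of 5 detected CDK inhibitor genes of 7, 3 were 2-fold higher in both lines, beside 19.9% and 14.8% of all genes. Cdkn2d, the gene of p19INK4d, was 8.02-fold and 7.17-fold higher, Cdkn2c, of p18INK4c, 3.04-fold in each, and Cdkn1b, of p27KIP1, at least 3.11-fold and 3.74-fold. Cdkn1a, the gene of p21, was undetected in both control arrays, and with MYC off the miR-17-92 level was at least 3.85-fold above it.

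Among 11 detected partners of E2F6 in PRC1.6, out of 12 listed, the medians were log2 0.03 and 0.04 with DOX. Pcgf6, the ring finger subunit that defines the complex, had log2 ratios of -2.96 in control and -2.70 in miR-17-92 cells, and Wdr5 of -1.26 and -0.66. Yaf2 stood at -0.10 and 0.59, and Mga, the subunit that pairs with MAX, gave no fold because it was undetected without DOX and dim with it. Of 6 detected regulators of E2F proteins, out of 7 listed, Ccnf, the gene of cyclin F, a ubiquitin ligase subunit, was 2.12-fold and 1.04-fold lower. Eapp, of an E2F-associated phosphoprotein, was 1.24-fold and 2.04-fold higher, Fzr1, an activator of the ubiquitin ligase APC/C, 1.02-fold and 1.69-fold, and Arid3a, of an E2F-binding protein, 2.98-fold and 2.08-fold.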

How the data were processed

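Total RNA of 4 cultures was measured as biotinylated cRNA on Illumina bead arrays according to the labels' protocols, and the submitters' processing notes name GenomeStudio. The deposited table without normalization holds bead intensity and an unadjusted detection p-value per probe, per the file headers. Each detection column was matched to the signal column whose order it follows, with 0 rank breaks. A second deposited intensity table is the authors' rescaling of the same arrays (r = 1 on each), by a method the sources used here do not state. Here, limma 3.58.1 (R 4.3.3) subtracted background by a normal-exponential model fitted from the detection p-values, with an offset of 16, and log2 values were quantile normalized, so ratios are relative to other genes. Median raw signal was 119 to 160 per array. Of the probes 34885 had 1 gene, 18 several and 10378 none. Names were matched to current symbols by gene number. A gene undetected on its dim side is given as a lower bound. Named genes were the 10 members, lists of up to 3 genes, and up to 4 genes per longer list with the largest ratio in the control DOX effect or in the difference of DOX effects. Others are named where they complete a count. With 1 array per group no test was run, and the number of arrays limits precision. The procedure was tested on simulated data with changes planted in bright probes only, so that test does not cover dim probes such as that of E2f8. Members, lists and alternatives were chosen with earlier results of these data known.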

Additional observations from a re-analysis of the deposited data

Results flagged for a closer look

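With 1 array per group no sample could be compared with others of its group. Named genes detected on all 4 arrays were listed where the DOX effects of the lines had opposite signs, a difference that was not tested. None of the E2F and DP genes detected on all arrays was among them. The miR-17-92 effect of DOX minus the control effect was log2 2.82 for Gins2, 2.65 for Chek1, 1.58 for Mybl2, 1.28 for Aurkb, 1.16 for Ube2c, 1.14 for Rbl1, 1.11 for Kif11, 0.81 for Foxm1, 0.71 for Lin54 and 0.69 for Yaf2. Each was below 0 in the control cells and above it in the miR-17-92 cells. Several signs rest on values within the spread between probes. In the miR-17-92 cells, where that spread was 0.32, Chek1 stood at 0.01, Gins2 at 0.10, Mybl2 at 0.23 and Aurkb at 0.24. In the control cells, where it was 0.33, Yaf2 stood at -0.10, Ube2c at -0.12 and Lin54 at -0.26.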

How the results depend on the processing

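Each ratio of the detected E2F and DP genes was recomputed under 7 alternatives. None of those past 2-fold changed sign, and 287 of 310 recomputed values moved by no more than the spread between probes. Many of the 310 could not move, which limits what this count shows. Both changed detection rules read each retained gene from the same probe and left its ratios unchanged. The mean of the detected probes cannot differ for a gene with a single detected probe. The count past 2-fold in the control DOX effect was 6 in every alternative, although E2f2 was barely past 2-fold with the authors' processed values. In the DOX effect of the miR-17-92 cells the count of 2 became 1 without background correction and with detection on all 4 arrays, and 4 with median scaling, where E2f6 (-1.05) and Tfdp1 (-1.01) were 2-fold lower. It was 3 with the authors' values, where E2f6 (-1.18) and Tfdp1 (-1.14) were lower and E2f8 was under 2-fold, and 3 with the mean of the detected probes, where E2f6 (-1.01) was lower. In the miR-17-92 effect with DOX the count of 2 became 1 without background correction, with the authors' values, with detection on all 4 arrays and with an offset of 50, where E2f8 was under 2-fold or not analysed, and 3 with the mean of the detected probes, where E2f3 reached 1.01. In the difference of the DOX effects it became 1 with detection on all 4 arrays and 3 with the mean of the detected probes, where E2f3 reached 1.09. The count of 2 there includes E2f8, which has no measured difference because both arrays without DOX left it undetected. A detection p of 0.05 brought E2f7 in and left these counts as they were. With MYC on, the sign for Tfdp1 and Tfdp2, with MYC off that for E2f2, and in the control DOX effect that for E2f8, differed between alternatives. The median of all genes in the control DOX effect was log2 0.24 with median scaling and -0.13 with the authors' values, in the miR-17-92 cells 0.25 and -0.06, and the 1722 higher and 1565 lower genes became 2139 and 1299, or 946 and 1414. In the miR-17-92 DOX effect 1281 and 1108 became 1765 and 899, or 661 and 942. Past 2-fold between the lines with MYC on were 102 higher and 90 lower genes, but 9 and 6 without background correction, 6 and 3 with the authors' values, 11 and 16 with detection on all 4 arrays and 31 and 24 with an offset of 50. With MYC off, 552 and 419 became 293 and 204 without background correction and 336 and 166 with the authors' values, and in the difference of the DOX effects 616 and 418 became 295 and 168, and 318 and 126. The cause was not tested. A DOX effect shared by the lines, with the lines as pairs, was not fitted. Signal over background limits E2f8 and E2f7 most.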
